A study of Drosophila melanogaster with 159 samples.

Results

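Transcripts of slo, nrv2, igl and Cbp53E, 4 fruit fly genes for ion and calcium handling that are known from neurons, were followed through the life cycle of Drosophila melanogaster. The members were chosen by name, and every probe that the platform annotation assigns to a single one of them was taken. This gave 1 probe for each gene, 4 of the 4137 probes with a single gene name, which cover 3045 genes. Each array carried 12588 cDNA probes and set the poly(A)+ RNA of whole animals, in 1 colour, against a common reference RNA in the other. The flies that the titles call tudor were adult females and males of 0-24 h and 5 d, with 2 arrays for each sex and age (8 arrays). Wild-type adults, of the strain Canton S, were females and males of 0-24 h and of 3, 5, 10, 15, 20, 25 and 30 d after eclosion (32 arrays). Earlier wild-type stages began with embryos in 30 collections from egg lays of 1 h, which overlapped only up to that of 6-7 h (60 arrays). They went on with larvae in 12 groups timed from hatching (24 arrays) and animals at 18 times of metamorphosis counted from the white prepupa (35 arrays). Of the 80 groups 79 had 2 arrays, and 0 h of metamorphosis had 1. Adults were sorted by sex after freezing, and the last larval time was also collected as separate sexes. The gene tudor is needed for germ plasm and so for germ cells. The titles do not say whether the tudor flies or their mothers lacked it, and the strain text of those arrays names Canton S.

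A neuron at rest depends on the sodium-potassium pump, which exports sodium and imports potassium and needs a beta subunit to reach the cell surface. When an action potential opens calcium channels, calcium-activated potassium channels return the membrane to rest, while calcium-binding proteins and calmodulin buffer and relay the calcium signal. The gene nrv2 (nervana 2, Entrez 33953) encodes a beta subunit of the pump that is used in the nervous system and also in epithelia, where it takes part in septate junctions and the control of tracheal tube size. The gene slo (slowpoke, Entrez 42940) encodes the pore-forming subunit of the large-conductance calcium-activated potassium channel of neurons and muscles. The gene igl (igloo, Entrez 36681) encodes a calmodulin-binding protein with IQ motifs that is related to vertebrate neuromodulin and neurogranin, and Cbp53E (Entrez 36905) encodes an EF-hand calcium buffer of the calbindin family.

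Levels are given as centred log2 ratios, the deposited log2 ratio of sample over reference minus the median of its array, so 0 is the middle probe of that array. Because each gene is read against its own amount in the reference RNA, levels can be ordered over stages within a gene but not between genes. Arrays gave 6722 to 8547 values each. Slide numbers were written in 2 forms, and the 57 arrays of one form (slide set A) were separated from the 102 of the other (slide set B) by a term in each fit. The probe of nrv2 had a value on every array, that of slo on all but 2, and those of igl and Cbp53E on all but 7 each. At 4 times, embryo 2-3 h and 4-5 h and metamorphosis 12 h and 16 h, replicate 1 stood apart. Its highest correlation with any array of another group was 0.246, 0.354, 0.0511 and 0.0760 over probes in that order of times, against 0.667 for the next lowest array. At embryo 2-3 h, replicate 1 gave 0.45 for slo, 0.80 for nrv2, 1.39 for igl and -3.83 for Cbp53E, where replicate 2 gave -2.72, -3.0, -3.99 and -1.25. Results whose call or direction changed without these arrays are given both ways. No label says that the 2 arrays of a group hold RNA of separate collections, so each p-value reflects spread between arrays that may be technical. In whole animals, fewer cells of a type and less RNA per cell cannot be told apart.

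All 4 genes were low in early embryos, high at the end of embryogenesis and in young larvae, low in late larvae and in prepupae of 0-6 h, and higher again late in metamorphosis. The pump gene nrv2 read 0.86 ± 0.62 (SD, n = 6) at 16-24 h of metamorphosis, beside 0.77 ± 0.30 (SD, n = 6) in larvae of 24-43 h. The others stood below their own means in those larvae, slo at -1.61 against 1.26, igl at -0.92 against 1.93 and Cbp53E at -0.52 against 1.73. Without metamorphosis 16 h replicate 1 the means at 16-24 h were 0.78 for nrv2, -2.05 for slo, -1.12 for igl and -0.51 for Cbp53E. The slide sets disagreed on nrv2, whose rise from 0-6 h was 2.01 within set A and 0.59 within set B (limma adjusted p = 0.419). Levels at 16-24 h were not tested against those of larvae. For slo the window means spanned 4.56 on the log2 scale, from the lowest at 0-2 h of embryogenesis (-2.93 ± 0.46, SD, n = 6) to the highest at 60 h of metamorphosis (1.63 ± 0.07, SD, n = 2). The span was 6.63 for nrv2, whose lowest window was also embryo 0-2 h (-4.81 ± 0.56, SD, n = 6) and whose highest was embryo 18-20 h (1.82 ± 0.42, SD, n = 4), level with metamorphosis 72-96 h (1.82 ± 0.37, SD, n = 6). It was 6.99 for igl, lowest at embryo 0-2 h (-4.80 ± 0.27, SD, n = 6) and highest at embryo 20-24 h (2.18 ± 0.69, SD, n = 7). It was 3.27 for Cbp53E, lowest at embryo 1.5-4.5 h (-1.53 ± 0.88, SD, n = 9) and highest in larvae of 24-43 h (1.73 ± 0.32, SD, n = 6). Without embryo 2-3 h replicate 1 the Cbp53E mean at 1.5-4.5 h was -1.25 ± 0.20 (SD, n = 8).

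**Figure D1:**
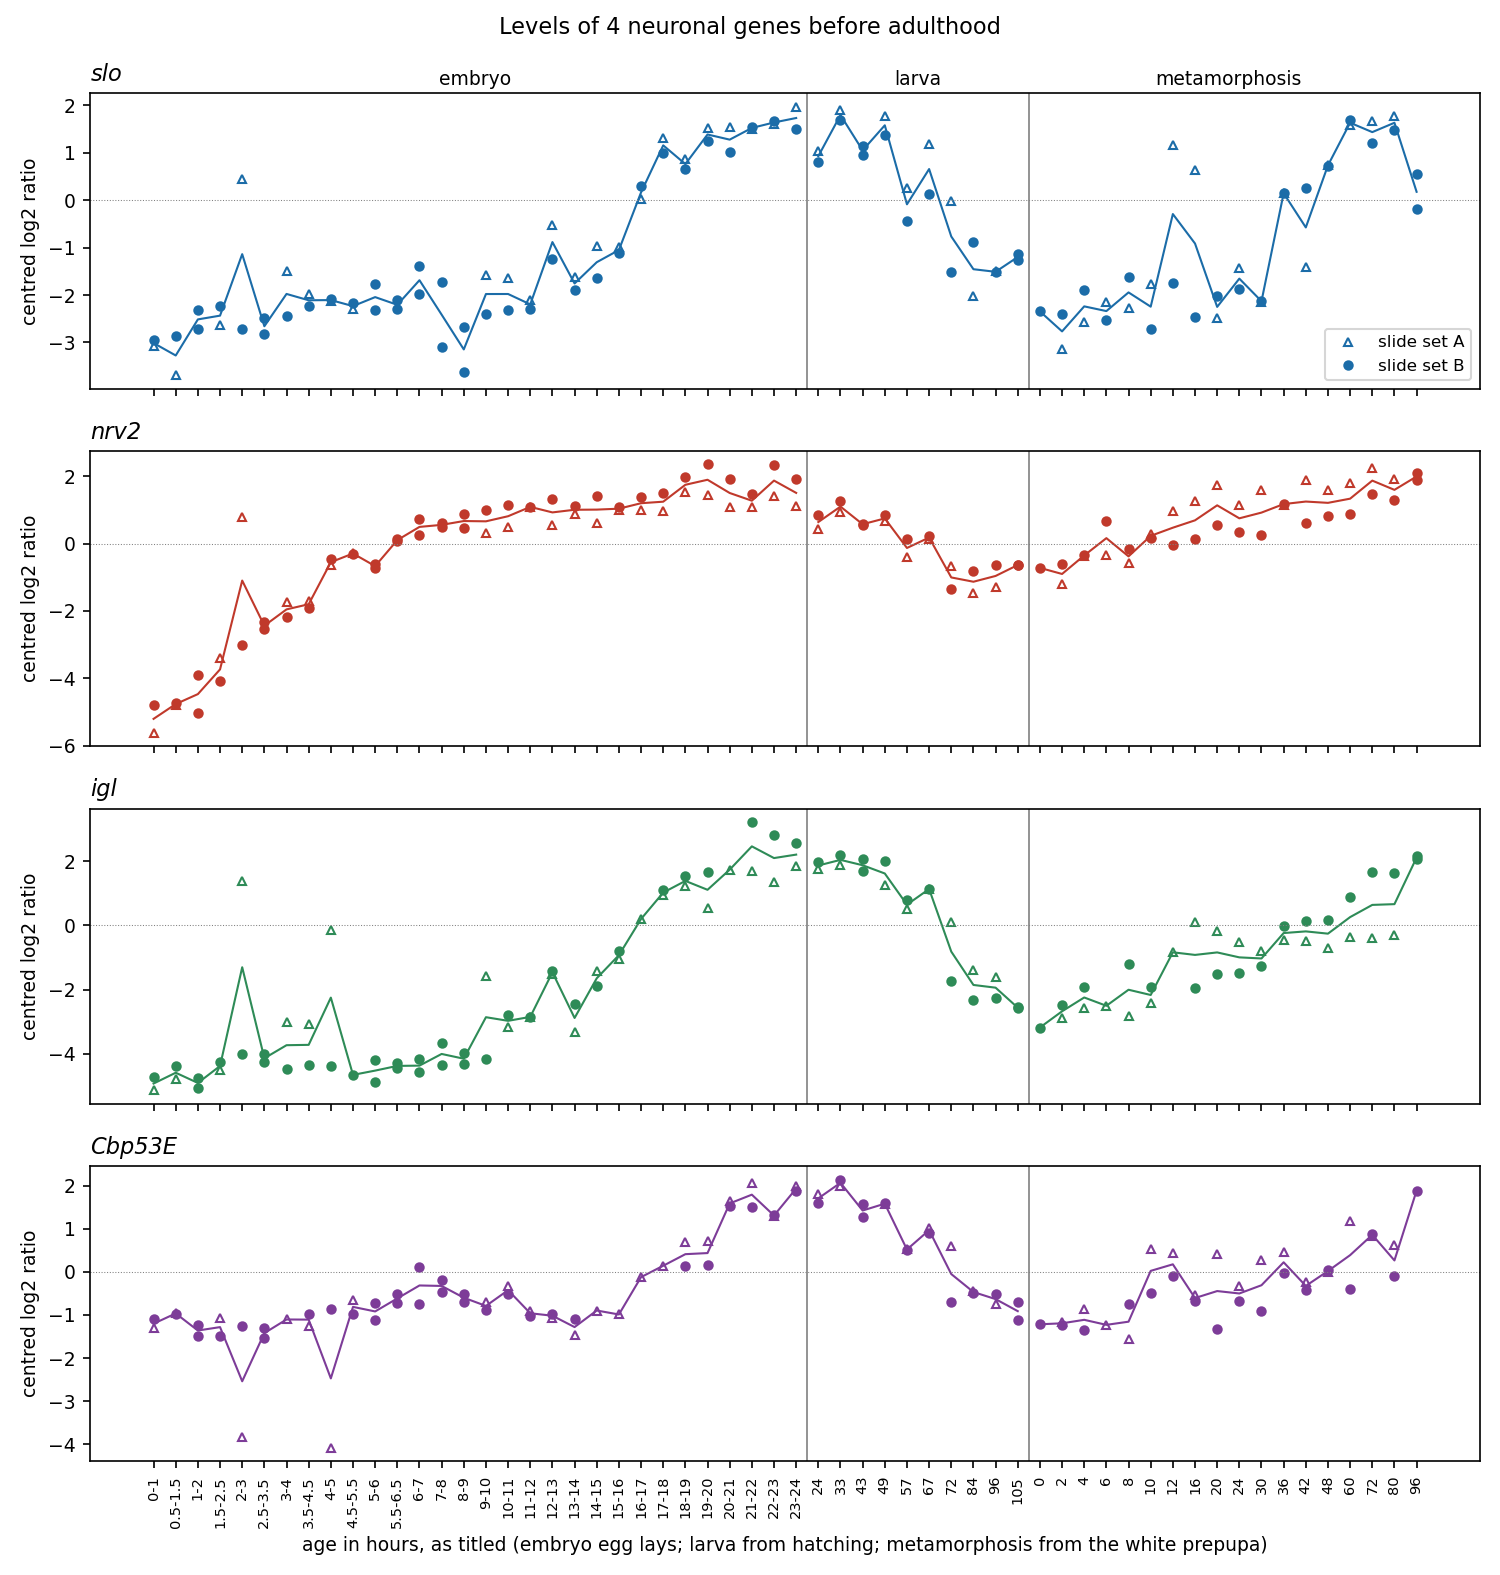
Centred log2 ratio of slo, nrv2, igl and Cbp53E (vertical axes, 1 panel per gene) at each embryo collection, larval time and time of metamorphosis in hours (horizontal axis, unequal steps). Triangles are arrays of slide set A, circles arrays of slide set B and lines join group means; all 4 genes stand low in the first embryo collections and in late larvae, and nrv2 climbs in the embryo before slo and igl do, with -0.36 on average at 4-6.5 h.

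Most neighbours in the order of window means overlapped in their values. Ranking places windows of the closest means side by side, so such overlap is a description and does not test whether windows differ. With the 29 windows of each gene ranked by mean, the values of neighbouring windows overlapped in 28 of 28 pairs for slo and for Cbp53E and in 27 of 28 for nrv2 and for igl. The exception for nrv2 was the bottom of the order, where embryos of 0-2 h lay below adult females of 20-30 d (-2.31 ± 0.25, SD, n = 6) without overlap. The exception for igl was near the top, where larvae of 24-43 h (1.93 ± 0.18, SD, n = 6) lay above embryos of 18-20 h (1.25 ± 0.50, SD, n = 4) without overlap. By limma's moderated F test each of the 4 genes varied within embryos, within larvae and within metamorphosis at an adjusted p under 0.05, which 79.6%, 51.5% and 18.5% of all probes tested did in those stages. Over all groups of the life cycle each member passed too, as did 97.3% of probes. Without the 9 replicate 1 arrays of 20 to 80 h of metamorphosis, slo (adjusted p = 0.119), nrv2 (0.134) and Cbp53E (0.0772) did not pass within metamorphosis.

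The pump subunit gene nrv2 was higher at 4-6.5 h of embryogenesis than at 0-2 h, and higher again at 10-13 h. The nrv2 values ran from -0.72 to 0.12 with a median of -0.39 over the 8 arrays of 4-6.5 h, and from -5.62 to -3.89 with a median of -4.79 over the 6 arrays of 0-2 h. The 2 windows did not overlap, and nrv2 was 4.43 ± 0.22 higher at 4-6.5 h (log2 difference ± SE, 21.5-fold, limma adjusted p = 2.41e-09). The difference was 4.75 in slide set A, where 0 of 5820 probes passed in limma and 1379 had an unadjusted p under 0.05, and 4.29 in slide set B. In between, at 3-4 h, nrv2 read -1.73 and -2.18, and it lay below 0 on every array before 4 h but embryo 2-3 h replicate 1. At 10-13 h its level was 0.94 ± 0.35 (SD, n = 6), against -0.36 ± 0.32 (SD, n = 8) at 4-6.5 h, again without overlap, a difference of 1.37 ± 0.19 (SE, limma adjusted p = 3.03e-04). At 15-18 h it was 1.16 ± 0.23 (SD, n = 6), against 0.94 at 10-13 h (difference 0.22, adjusted p = 0.332).

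Of the other 3 genes, only slo passed before 13 h with all arrays included, and by a small difference. At 4-6.5 h slo was 0.76 ± 0.16 (SE) higher than at 0-2 h (limma adjusted p = 0.00133), with -2.15 ± 0.18 (SD, n = 8) against -2.93 ± 0.46 (SD, n = 6) and overlapping values. This call was lost under quantile normalization, where the difference was 0.014 (adjusted p = 0.932). For igl the difference between these windows was 1.25 ± 0.54 (adjusted p = 0.0674), and for Cbp53E it was -0.09 (0.865). Both values rest on embryo 4-5 h replicate 1. Without it Cbp53E was 0.40 higher at 4-6.5 h and passed (limma adjusted p = 0.0141), as it did within slide set B (0.38, 0.0430), and the igl difference was 0.26 (0.192). Of all probes tested, 52.9% passed in this comparison and 32.2% were higher at 4-6.5 h, so 2 of 4 members higher stands beside a background of 32.2%. Neither slo (0.41, adjusted p = 0.265) nor igl (0.89, 0.303) nor Cbp53E (0.59, 0.337) passed between 10-13 h and 4-6.5 h, where 27.5% of probes passed and 11.8% were higher. Embryo 4-5 h replicate 1 decided that result too for igl, reading -0.13 where replicate 2 read -4.36. Without it igl was 2.12 higher at 10-13 h (adjusted p = 0.00110) and Cbp53E differed by -0.05.

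The larger rises of igl and slo lay between 10-13 h and 20-24 h. For igl the 5 arrays with a value at 15-18 h ran from -1.05 to 1.09 with a median of 0.20, against -3.15 to -1.41 with a median of -2.81 over the 6 arrays of 10-13 h. The windows did not overlap, and igl was 2.52 ± 0.46 (SE) higher at 15-18 h (limma adjusted p = 0.00765). For slo the 6 arrays of 15-18 h ran from -1.12 to 1.32 with a median of 0.16, and the 6 of 10-13 h from -2.31 to -0.52 with a median of -1.88. These windows overlapped, and slo was 1.77 ± 0.43 (SE) higher at 15-18 h (limma adjusted p = 0.0153). Collection by collection, slo read -0.99 and -1.12 at 15-16 h, 0.02 and 0.30 at 16-17 h and 1.32 and 0.99 at 17-18 h, so its arrays crossed 0 within these 3 h. The differences within the slide sets were 2.54 in set A and 2.50 in set B for igl, and 1.54 in set A and 2.01 in set B for slo, and neither gene passed within a single set. In this comparison 20.2% of all probes passed and 11% were higher. The calbindin gene was not tested there, because only 3 of the 6 arrays of 15-18 h held a value for it.

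All 3 members that could be tested were higher at 20-24 h than at 15-18 h, a comparison in which 52.1% of probes passed and 28.8% were higher. The level of igl was 2.18 ± 0.69 (SD, n = 7) at 20-24 h, against 0.08 ± 0.98 (SD, n = 5) at 15-18 h. Its windows did not overlap, and the difference was 2.08 ± 0.37 (SE, limma adjusted p = 4.08e-04). The channel gene slo differed by 1.45 ± 0.33 (SE, limma adjusted p = 0.00176), with 1.54 in set A and 1.37 in set B. The pump gene nrv2 differed by 0.38 ± 0.14 (SE, limma adjusted p = 0.0285), a call lost without centring (0.22, 0.222), under quantile normalization (0.07, 0.731), with the slide as a random block (0.0631) and without either of the arrays of embryo 15-16 h replicate 2 (0.0774) or 16-17 h replicate 2 (0.0532). The 8 arrays of 20-24 h gave Cbp53E 1.66 ± 0.30 (SD), and the 3 of 15-18 h gave -0.32 ± 0.59 (SD), without overlap. When probes with a value on at least 50% of arrays were tested, Cbp53E differed by 2.07 (limma adjusted p = 1.12e-04).

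**Figure D2:**
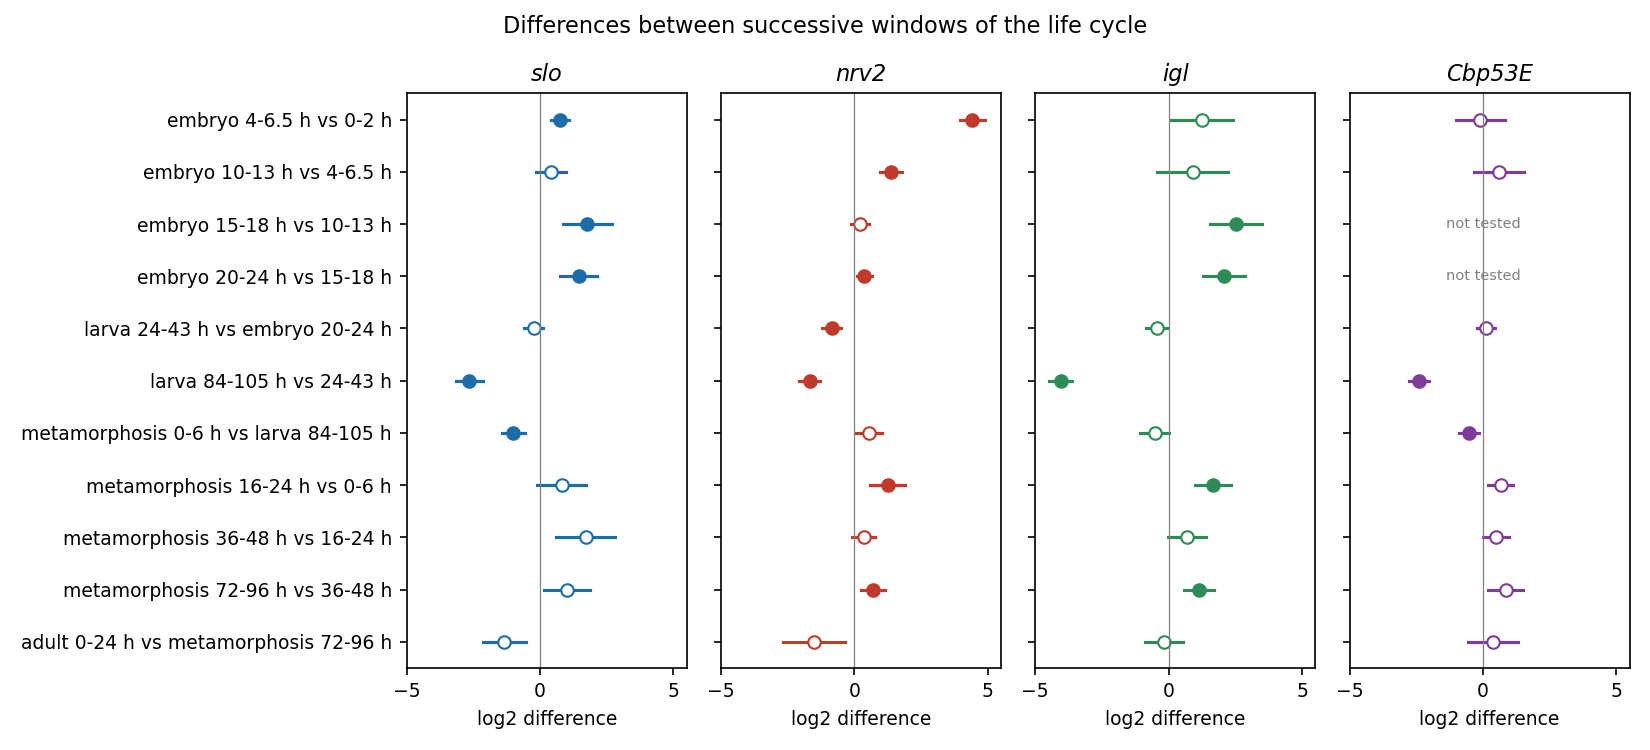
Log2 difference between successive windows of the life cycle (horizontal axis, later minus earlier window, with 95% confidence intervals) for slo, nrv2, igl and Cbp53E, with filled points at an adjusted p under 0.05. The nrv2 difference at embryo 4-6.5 h is 4.43, and in late larvae against larvae of 24-43 h all 4 genes lie below 0, between -1.68 for nrv2 and -4.05 for igl.

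Between larvae of 24-43 h and embryos of 20-24 h only nrv2 passed, with 0.77 ± 0.30 (SD, n = 6) in larvae, against 1.53 ± 0.46 (SD, n = 8) in embryos, a difference of -0.85 ± 0.17 (SE, limma adjusted p = 8.59e-04). Of all probes 49% passed and 23% were lower. The differences of slo (-0.24, adjusted p = 0.259), Cbp53E (0.11, 0.583) and igl (-0.43, 0.0761) did not pass. The igl call depended on the setting, since it passed without centring (-0.56, 0.0209), under quantile normalization (-0.60, 0.0428) and without larva 33 h replicate 1 (-0.58, 0.0260).

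Late larvae, the 3 unsexed times from 84 h on, were lower than young larvae of 24-43 h for all 4 genes. The igl values of the 6 late arrays ran from -2.58 to -1.40 with a median of -2.29, against 1.70 to 2.20 with a median of 1.93 over the 6 arrays of 24-43 h. The igl difference was -4.05 ± 0.20 (SE, 16.5-fold lower, limma adjusted p = 5.57e-08), the largest of the members. For slo late larvae ran from -2.03 to -0.88 with a median of -1.38, and young larvae from 0.81 to 1.90 with a median of 1.09. Its difference was -2.64 ± 0.23 (SE, 6.25-fold lower, limma adjusted p = 9.44e-06). For Cbp53E the values were -1.12 to -0.44 with a median of -0.61 in late larvae, and 1.26 to 2.15 with a median of 1.71 in young larvae. Its difference was -2.40 ± 0.18 (SE, limma adjusted p = 1.74e-06). For nrv2 they were -1.46 to -0.63 with a median of -0.73 in late larvae, and 0.44 to 1.25 with a median of 0.71 in young larvae. Its difference was -1.68 ± 0.18 (SE, limma adjusted p = 3.88e-05).

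In none of the 4 did the young and late larval windows overlap, and each passed within slide set A (-3.33 for igl, -3.24 for slo, -2.5 for Cbp53E, -2.07 for nrv2) and within slide set B (-4.40, -2.35, -2.36 and -1.48 in the same order). Of all probes 31% passed and 17.2% were lower, so 4 of 4 members lower stands beside a background of 17.2%. The intermediate larvae lay between, and not smoothly. At 57 h slo read 0.26 and -0.43, below the 1.19 and 0.12 of 67 h, and igl read 0.50 and 0.80, below the 1.13 and 1.14 of 67 h. At 72 h the 2 arrays were far apart, 0.10 in replicate 1 and -1.73 in replicate 2 for igl.

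From late larvae to the prepupa slo and Cbp53E were lower. At 0-6 h of metamorphosis slo stood at -2.43 ± 0.39 (SD, n = 7), against -1.39 ± 0.40 (SD, n = 6) in late larvae, a difference of -1.0 ± 0.20 (SE, limma adjusted p = 0.00167). Under quantile normalization it was -0.33 (adjusted p = 0.349). The Cbp53E level was -1.18 ± 0.16 (SD, n = 6) in these prepupae, against -0.67 ± 0.25 (SD, n = 6) in late larvae. The Cbp53E difference of -0.53 ± 0.17 (SE, limma adjusted p = 0.0265) was -0.13 without centring (0.688) and -0.30 under quantile normalization (0.388). It was also lost with the slide as a random block (0.0655) and without any 1 of 5 arrays, metamorphosis 6 h replicate 1 and 4 h replicate 2, larva 84 h replicates 1 and 2 and larva 96 h replicate 2. The differences of nrv2 (0.54, adjusted p = 0.0806) and igl (-0.53, 0.113) did not pass. For nrv2 the difference was larger and passed without centring (0.92, 0.0111), under quantile normalization (1.00, 0.0124) and without metamorphosis 0 h replicate 1 (0.65, 0.0427). For igl it passed in slide set A (-1.15, 0.0226) and without metamorphosis 4 h replicate 2 (-0.75, 0.0195), and it turned to 0.47 under quantile normalization (0.261). Of all probes 33.6% passed and 17.7% were lower. Without centring the median of all probes shifted by 0.37 in this comparison.

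By 16-24 h of metamorphosis nrv2 and igl were higher than at 0-6 h. At 16-24 h igl ran from -1.95 to 0.12 with a median of -0.99 (6 arrays), against -3.18 to -1.91 with a median of -2.54 at 0-6 h (6 arrays). The igl difference was 1.67 ± 0.31 (SE, limma adjusted p = 0.00750). For nrv2 the 6 arrays of 16-24 h ran from 0.12 to 1.73 with a median of 0.84, and the 7 of 0-6 h from -1.19 to 0.66 with a median of -0.36. The nrv2 difference was 1.25 ± 0.31 (SE, limma adjusted p = 0.0237). Both windows overlapped for both genes. Both differences passed within slide set A (2.47 for igl, 2.01 for nrv2) and neither within slide set B (0.87, adjusted p = 0.264, and 0.59, 0.419). The nrv2 call was also lost without any 1 of 4 replicate 1 arrays, those of 2, 4, 6 and 20 h (adjusted p = 0.0505 to 0.0569), and without the 9 replicate 1 arrays of 20 to 80 h (0.101). Of all probes 9.66% passed and 4.24% were higher. The differences of slo (0.80, adjusted p = 0.236) and Cbp53E (0.66, 0.0756) did not pass. Without metamorphosis 16 h replicate 1 slo differed by 0.38 (0.296), and Cbp53E differed by 0.71 and passed (limma adjusted p = 0.0497).

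The slo arrays stood low up to 30 h of metamorphosis, apart from those of 12 and 16 h replicate 1, and near 0 at 36 h. They read -2.15 and -2.12 at 30 h, 0.14 and 0.15 at 36 h and 1.58 and 1.68 at 60 h. At these 3 times the replicates lay close together for slo, while at 42 h they read -1.41 and 0.26. Over all probes the replicates of 30, 36 and 60 h correlated at only 0.431, 0.400 and 0.411, against 0.758 at 10 h and 0.863 at 4 h. For the windows of 36-48 h against 16-24 h slo differed by 1.71 ± 0.51 (SE), with 0.10 ± 0.79 (SD, n = 6) at 36-48 h and -1.61 ± 1.16 (SD, n = 6) at 16-24 h, and did not pass (limma adjusted p = 0.202). In that comparison 0 of 6980 probes passed in limma, 0% of those tested, and 883 had an unadjusted p under 0.05. Metamorphosis 16 h replicate 1 read 0.63 for slo, where replicate 2 read -2.46. Without it slo differed by 2.18 (adjusted p = 0.0148) and 119 probes passed. Within slide set B slo differed by 2.49 (adjusted p = 0.00256) and igl by 1.74 (0.00785), and within set A by 0.92 (0.830) and -0.36 (0.830).

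Late in metamorphosis igl and nrv2 were higher again. The igl level was 1.14 ± 1.17 (SD, n = 6) at 72-96 h, against -0.22 ± 0.37 (SD, n = 6) at 36-48 h, a difference of 1.13 ± 0.26 (SE, limma adjusted p = 0.00885). It was 0.20 in slide set A (adjusted p = 0.403) and 1.79 in set B (0.00151). The slide sets parted on the arrays themselves, where igl at 72 h read -0.38 in replicate 1 and 1.66 in replicate 2, and at 80 h -0.30 and 1.63. The nrv2 level was 1.82 ± 0.37 (SD, n = 6), against 1.21 ± 0.48 (SD, n = 6) at 36-48 h. The nrv2 difference of 0.70 ± 0.20 (SE, limma adjusted p = 0.0273) was lost under quantile normalization (0.34, 0.271), with the slide as a random block (0.0909), without the 9 replicate 1 arrays of 20 to 80 h (0.82, 0.0928) and without any 1 of 5 arrays, 72 h, 96 h and 36 h replicate 1 and 42 h and 48 h replicate 2 (adjusted p = 0.0505 to 0.0705). For slo (1.01, adjusted p = 0.0924) and Cbp53E (0.86, 0.0601) the differences did not pass, although slo passed without metamorphosis 96 h replicate 1 (1.23, 0.0385) and Cbp53E without 80 h replicate 2 (1.09, 0.0171). Of all probes 21.3% passed and 12.4% were higher.

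Over the 9 times from 20 to 80 h with 1 array in each slide set, set A read higher than set B for nrv2 at 8 of 9 times (mean difference 0.85) and for Cbp53E at 7 of 9 (0.68). It did so for slo at 4 of 9 (-0.11) and for igl at 3 of 9 (-0.48, between -2.04 and 1.36). The part of the slide set in these levels was not tested apart from the replicate number, since at these times set A holds replicate 1 and set B replicate 2.

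The end of metamorphosis was also set against the end of embryogenesis, the stages at which the adult and the larval nervous system are completed. At 72-96 h of metamorphosis igl was 1.44 lower than in embryos of 20-24 h (-1.44 ± 0.21, SE, limma adjusted p = 5.88e-05), with 1.14 ± 1.17 (SD, n = 6) against 2.18 ± 0.69 (SD, n = 7). The igl difference was -2.01 in slide set A and -0.99 in set B, and both passed. Cbp53E stood at 0.83 ± 0.71 (SD, n = 5) at 72-96 h, against 1.66 ± 0.30 (SD, n = 8) in late embryos. The Cbp53E difference was -0.82 ± 0.27 (SE, limma adjusted p = 0.0198), with -1.02 in set A (0.00557) and -0.67 in set B (0.221), and it was lost with the slide as a random block (0.147) and without metamorphosis 80 h replicate 1 (0.0582) or replicate 2 (0.0512). The differences of slo (-0.37, adjusted p = 0.214) and nrv2 (0.23, 0.388) did not pass. For nrv2 it was 0.91 in set A (0.00199) and -0.21 in set B (0.525). Of all probes 50.9% passed and 27.1% were lower.

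Between newly eclosed adults of 0-24 h and animals of 72-96 h of metamorphosis no member passed in limma, and 2.58% of all probes did. The adult window mixes the sexes, and for nrv2 the 2 male arrays read 1.43 and 1.53 and the 2 female arrays -1.11 and -0.53. The nrv2 difference was -1.5 ± 0.53 (SE, limma adjusted p = 0.138). The slo difference was -1.34 ± 0.37 (SE, limma adjusted p = 0.0745), and it passed without metamorphosis 96 h replicate 1 (-1.52, 0.0444). The differences of igl (-0.19, adjusted p = 0.779) and Cbp53E (0.37, 0.647) were smaller.

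In wild-type adults all 4 genes were higher in males than in females, and nrv2 had the largest difference of the 4. Over 8 ages, the 16 male arrays of nrv2 ran from 0.77 to 2.37 with a median of 1.50, and the 16 female arrays from -2.60 to -0.53 with a median of -1.97. The sexes did not overlap, and males were 3.28 ± 0.13 higher (SE, 9.69-fold, limma adjusted p = 2.00e-19). The igl level was 0.09 ± 0.64 (SD, n = 16) in males and -1.49 ± 0.84 (SD, n = 15) in females, a difference of 1.57 ± 0.15 (SE, limma adjusted p = 4.06e-10). The slo level was -0.30 ± 0.54 (SD, n = 16) in males and -1.62 ± 0.85 (SD, n = 15) in females, a difference of 1.31 ± 0.16 (SE, limma adjusted p = 2.51e-08). The Cbp53E level was 0.09 ± 0.73 (SD, n = 16) in males and -0.42 ± 0.56 (SD, n = 16) in females, a difference of 0.51 ± 0.11 (SE, limma adjusted p = 2.01e-04).

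Group means of males lay above those of females at 8 of 8 ages for each gene. The gap between the sexes ran from 2.30 to 4.02 for nrv2, from 0.93 to 2.38 for igl, from 0.60 to 2.32 for slo and from 0.20 to 0.92 for Cbp53E. Within the slide sets the difference was 2.91 in set A and 3.44 in set B for nrv2, 1.39 and 1.66 for igl, 0.83 and 1.55 for slo, and 0.75 and 0.40 for Cbp53E. Of all probes 74% passed between the sexes and 39.9% were higher in males, so 4 of 4 members higher stands beside a background of 39.9%. Without centring the median of all probes shifted by -0.23, and the Cbp53E difference of 0.28 did not pass (adjusted p = 0.0558). Germ cell transcripts moved with sex on the same arrays. The mean centred log2 ratio over 6 measured male germline genes ran from 1.93 to 3.63 on male arrays and from -3.10 to -1.39 on female arrays, and that over 3 measured female germline genes from -0.80 to 1.01 on male arrays and from 0.84 to 3.02 on female arrays. Of the male list 6 of 6 were higher in males. Of the female list 2 of 3 were lower in males (mtrm by -4.10 and swa by -2.63) and exu was higher (0.52). Their part in the differences of the 4 genes between wild-type sexes was not tested.

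In larvae of the last time point only nrv2 passed between the sexes. Male larvae read 0.80 and 0.04 and female larvae -0.67 and -1.06, without overlap, and the difference was 1.28 ± 0.30 (SE, limma adjusted p = 0.0190). It was lost under quantile normalization (adjusted p = 0.0541), in a fit of slide set B alone (1.28, 0.155) and without male replicate 1 (0.90, 0.212) or female replicate 2 (1.09, 0.191). The scan comments of both replicate 1 arrays conflict with their titles, and without arrays of this kind the difference was 1.09 and did not pass (0.0720). Of all probes 3.63% passed and 3.57% were higher in males. The differences of igl (0.56, adjusted p = 0.856), slo (-0.36, 0.965) and Cbp53E (-0.07, 0.997) between male and female larvae did not pass.

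The levels of the 4 genes also changed with adult age. In wild-type females slo fell by 0.60 ± 0.13 per 10 days on the log2 scale (SE, limma adjusted p = 0.00444), nrv2 fell by 0.52 ± 0.09 (6.90e-04) and igl fell by 0.67 ± 0.15 (0.00540). The female slope of Cbp53E was -0.29 (adjusted p = 0.166). Of all probes 8.7% had a female slope that passed and 4.85% a falling one. The female slo arrays read -0.39 and -0.74 at 0-24 h, -1.51 and -1.31 at 10 d and -3.20 and -3.13 at 30 d. Those of nrv2 read -1.11 and -0.53 at 0-24 h, -2.29 and -2.13 at 10 d and -2.60 and -2.55 at 30 d. For slo the 30 d arrays were the lowest of the 15, while for nrv2 more of the fall in the means lay before 10 d than after it. The female igl arrays read -0.32 and 0.72 at 0-24 h, -2.01 and -1.92 at 10 d and -1.78 and -2.81 at 30 d.

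Some of these calls depended on the youngest flies or on the age scale. With ages of 3 d and more, the female slope was -0.54 for slo (limma adjusted p = 0.106) and -0.34 for igl (0.249), and neither passed, while that of nrv2 was -0.41 and passed (0.0402). With the log2 of age, the female slope of Cbp53E passed too (-0.23 per doubling of age, 0.00356). Without adult female 0-24 h replicate 2 the igl slope was -0.48 (0.0959). In wild-type males only Cbp53E passed, with a fall of 0.41 ± 0.13 per 10 days (-0.41, SE, limma adjusted p = 0.0462), where 10.8% of all probes passed and 5.76% fell. This male slope was -0.12 with ages of 3 d and more (0.579), and -0.24 without adult male 0-24 h replicate 2 (0.285). It was lost without centring (0.118), under quantile normalization (0.0813), with probes valued on at least 50% of arrays (0.0555), with the slide as a random block (0.0526) and without any 1 of 16 of the 32 arrays. Neither did it pass within slide set A (-0.51, limma adjusted p = 0.468) or within set B (-0.36, 0.188). The male Cbp53E arrays read 1.51 and 1.78 at 0-24 h, 0.12 and 0.13 at 3 d and -0.27 and -0.64 at 30 d. The male slopes of slo (-0.14, adjusted p = 0.540), nrv2 (-0.18, 0.236) and igl (-0.32, 0.166) did not pass, although that of igl passed with the log2 of age (-0.22 per doubling, 0.0122).

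On the linear age scale the sexes were not shown to differ in these slopes. The male minus female slope was 0.46 for slo (limma adjusted p = 0.138), 0.34 for nrv2 (0.133), 0.35 for igl (0.350) and -0.11 for Cbp53E (0.771), and 1.37% of all probes passed. With the log2 of age the nrv2 slopes did differ, by 0.22 per doubling of age (limma adjusted p = 0.0481). By the F test over adult ages within sex, each of the 4 genes passed (adjusted p = 0.0139 for slo, 0.0153 for nrv2, 0.0106 for igl and 0.00999 for Cbp53E), where 3.54% of all probes did. The nrv2 call was lost without centring (0.116) and under quantile normalization (0.209), and the igl call under quantile normalization (0.05005).

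**Figure D3:**
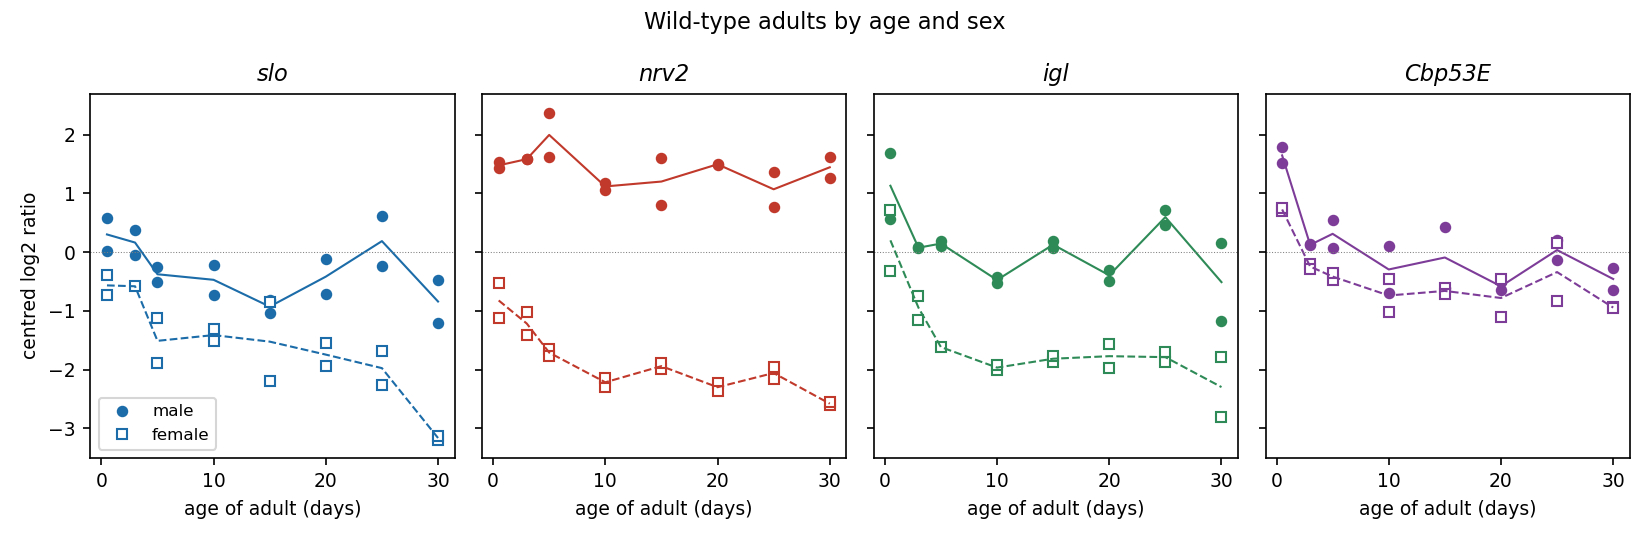
Centred log2 ratio of slo, nrv2, igl and Cbp53E (vertical axes, 1 panel per gene) against adult age in days (horizontal axis) for wild-type males and females. Filled circles are male arrays, open squares female arrays, and solid (male) and dashed (female) lines join the group means; male means lie above female means at 8 of 8 ages in each panel, with the widest gap for nrv2.

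In tudor flies nrv2 was lower in males and higher in females than in wild-type flies, and the sexes overlapped. The 4 arrays of tudor males read 0.45 and -0.13 at 0-24 h and 0.13 and 0.05 at 5 d, against 1.43 and 1.53 at 0-24 h and 1.62 and 2.37 at 5 d in wild-type males. All tudor male arrays lay below all wild-type male arrays of these ages, and nrv2 was 1.72 lower (-1.72 ± 0.21, SE, 3.28-fold lower, limma adjusted p = 2.67e-07). The 4 arrays of tudor females read 0.50 and 0.31 at 0-24 h and -0.31 and -0.56 at 5 d, against -1.11 and -0.53 at 0-24 h and -1.65 and -1.77 at 5 d in wild-type females. At each age both tudor female arrays lay above both wild-type ones, and nrv2 was 1.14 ± 0.21 higher (SE, limma adjusted p = 1.28e-04). At 0-24 h alone the female difference was 1.05 (adjusted p = 0.0890). Between the sexes the tudor effect differed by -2.86 ± 0.29 (SE, male minus female, limma adjusted p = 7.37e-09).

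Within tudor flies nrv2 stood at 0.13 ± 0.24 (SD, n = 4) in males and -0.02 ± 0.50 (SD, n = 4) in females. The difference of 0.14 ± 0.20 (SE) did not pass, and its 95% confidence interval ran from -0.27 to 0.56. That interval lies below the gaps of 2.30 to 4.02 between the wild-type sexes, although a p that misses the threshold does not show that the sexes were equal. All 8 tudor arrays belong to slide set B, and the slide set term rests on the wild-type arrays.

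**Figure D4:**
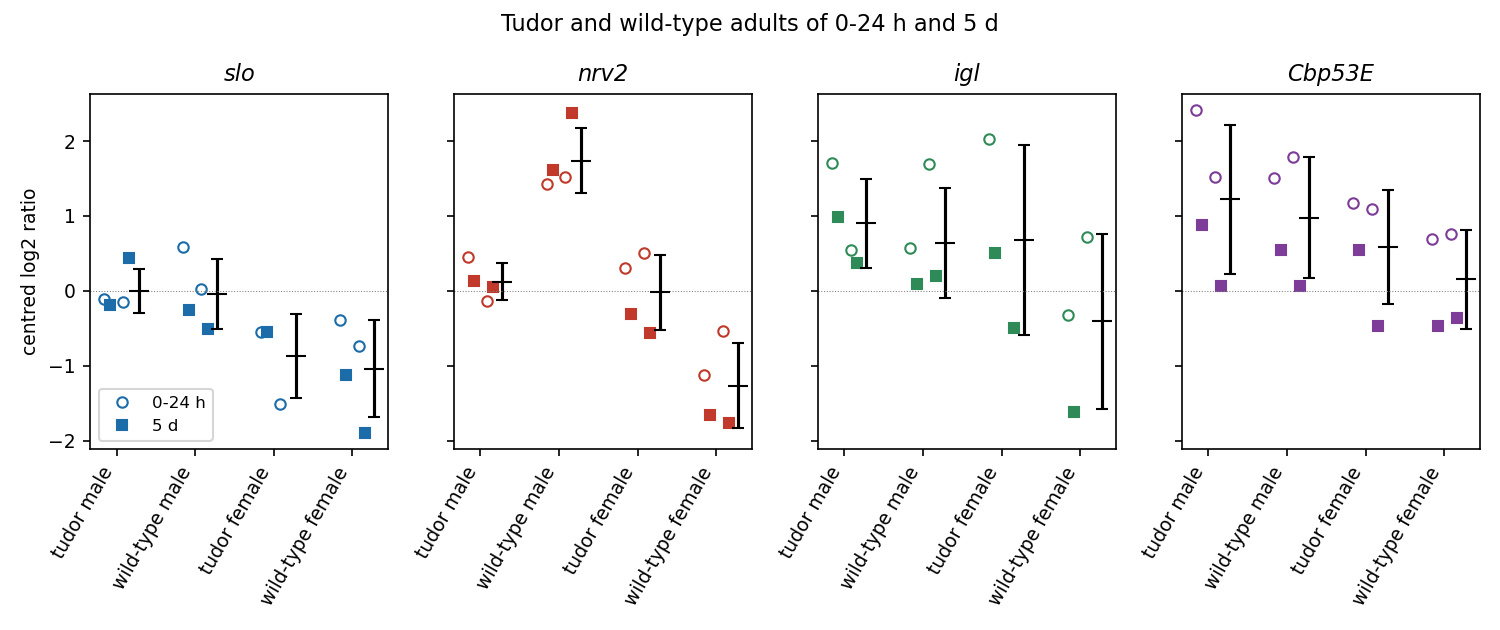
Centred log2 ratio of slo, nrv2, igl and Cbp53E (vertical axes) in tudor and wild-type adults of 0-24 h and 5 d by sex (horizontal axis). Open circles are arrays of 0-24 h, filled squares arrays of 5 d, and black bars mean ± SD; for nrv2 the tudor males (-0.13 to 0.45) lie below the wild-type males (1.43 to 2.37), and for the other 3 genes tudor and wild-type males overlap.

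Of the other 3 genes only igl passed, in females. The igl arrays of tudor females read 2.02 at 0-24 h and 0.51 and -0.50 at 5 d, against -0.32 and 0.72 at 0-24 h and -1.62 at 5 d in wild-type females, with 1 array missing on each side. The groups overlapped, and igl was 1.56 ± 0.41 higher in tudor females (SE, limma adjusted p = 0.00422). That call was lost with only the arrays of 0-24 h and 5 d (1.20, 0.0751), with 0-24 h alone (1.28, 0.165), with 5 d alone (1.52, 0.179), within slide set B alone (1.30, 0.191) and without adult female tudor 0-24 h replicate 1 (1.39, 0.0666). In males igl differed by 0.16 and did not pass. The igl effect differed between the sexes by -1.40 ± 0.50 (SE, male minus female, limma adjusted p = 0.0436). This call was lost without centring (-1.30, 0.0796), under quantile normalization (-0.87, 0.229), with probes valued on at least 50% of arrays (0.0525) and with only the arrays of 0-24 h and 5 d (-1.28, 0.107). It was also lost (adjusted p = 0.0571 to 0.180) without any 1 of 8 arrays, which were tudor female 0-24 h and 5 d replicate 1, wild-type female 0-24 h and 5 d replicate 1, tudor male 0-24 h and 5 d replicate 2, wild-type male 0-24 h replicate 2 and wild-type male 5 d replicate 1.

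Neither slo nor Cbp53E passed in tudor flies of either sex. The differences of slo were 0.34 in females (adjusted p = 0.455) and 0.27 in males, and those of Cbp53E were 0.56 in females (0.111) and 0.38 in males. Without adult female tudor 5 d replicate 2 the female Cbp53E difference was 0.76 (0.0459). Between tudor males and tudor females slo differed by 0.93 (adjusted p = 0.0701), with -0.18 to 0.44 on 4 male arrays and -1.51 to -0.55 on 3 female arrays, and by 1.50 without adult female tudor 5 d replicate 2 (0.0174). Of all probes 37.8% passed between tudor and wild-type females, with 24.2% higher in tudor. Between tudor and wild-type males 22.7% passed, with 12.2% lower in tudor. The tudor effect differed between the sexes for 21.6% of probes, with 13.7% lower in males, and 10.9% differed between tudor males and tudor females. The median of all probes was 0.18 in the female comparison and 0.14 in the male one.

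Germ cell transcripts moved with these groups too. The mean over the 6 male germline genes ran from -1.59 to -0.73 on tudor male arrays, against 2.93 to 3.63 on wild-type male arrays of the same ages, and 6 of 6 genes passed as lower in tudor males. It ran from -1.87 to -0.99 on tudor female arrays, against -2.80 to -1.39 on wild-type female arrays, and 3 of 6 genes passed as higher in tudor females. The mean over the 3 female germline genes ran from -2.63 to -1.09 on tudor female arrays, against 0.84 to 2.51 on wild-type female arrays, and from -2.58 to -1.27 on tudor male arrays, against -0.53 to 0.87 on wild-type male arrays. In tudor females 3 of 3 were lower, and in tudor males 2 of 3, with exu at -6.03 and swa at -1.62, while mtrm (0.38) did not pass. The lower mean of the female germline list in tudor males thus rests mainly on exu. Of 7 muscle genes 5 were higher in tudor females, among them Obsc (1.74) and Prm (1.62), and 3 in tudor males. Of 4 glial genes 3 were higher in tudor females, among them Gs2 (1.23), and 1 in tudor males. Beside these counts, 24.2% of all probes were higher in tudor females and 37.8% passed there in either direction. In tudor males 12.2% of all probes were lower and 22.7% passed in either direction. The share of probes that were higher in tudor males is not given. The part of these germline, muscle and glial genes in the nrv2 and igl differences of tudor flies was not tested.

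The genes whose course over the life cycle was most like each member were ranked. Over the 80 group means, 2900 genes with a value in at least 70 groups were set against each member by Pearson's r, as a description. For igl the closest were Ktl (r = 0.953), nSyb (0.941), the vesicle protein of neurotransmitter release, and CAP (0.905). For slo they were Ktl (0.868), CG42613 (0.862) and nSyb (0.861), and for Cbp53E CG2225 (0.793), nSyb (0.780) and Ktl (0.776). For nrv2 they were gol (0.836), CG5467 (0.832) and nemy (0.830). Among the members themselves slo and igl were closest (r = 0.881 over 80 groups) and nrv2 and Cbp53E least alike (0.507). In the 12 larval groups the member pairs ranged from 0.812 to 0.983. The points of these correlations share arrays and the common reference.

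The counts for other lists of genes are read against the share of all probes in the same comparison. That share is for the same direction where a member passed in it, and otherwise for either direction. Of 27 pan-neuronal genes 12 had a single-gene probe. In late against young larvae 8 of 11 tested fell and 0 rose, where 17.2% of all probes fell, with a median of -0.81 beside -0.02 over all probes; the synaptic genes nSyb (-1.13) and shi (-0.81), the dynamin of vesicle recycling, were among them. In embryos of 20-24 h against 15-18 h 7 of 10 rose and 1 fell, where 28.8% of all probes rose. Among those that rose were nSyb (0.79) and Ddc (1.89), an enzyme of dopamine and serotonin synthesis. Ddc also serves cuticle tanning, so it is not a marker of neurons alone. In wild-type males against females 7 of 11 were higher and 1 lower, where 39.9% of all probes were higher, with a median of 0.53 beside 0.07. In tudor females 5 of 12 were higher than in wild-type females, where 24.2% of all probes were. Among them were Nrg (1.32), a cell adhesion protein of axons and septate junctions, and nSyb (0.99). In tudor against wild-type males 0 of 12 passed, where 22.7% of all probes did.

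Of 22 potassium channel genes other than slo, 9 were measured. In late against young larvae, where slo fell by 2.64, 1 of 7 fell (Irk2, an inward rectifier, -0.92) and 1 rose (Ork1, a leak channel, 0.95), so the share that fell was near the 17.2% of all probes. At 72-96 h against 36-48 h of metamorphosis 5 of 8 rose, where 12.4% of all probes did, with a median of 1.06 beside -0.04, among them Hk (2.18), a beta subunit of the Shaker channel, and SK (1.18), the small-conductance calcium-activated channel. In wild-type males against females 5 of 8 were higher and 0 lower, where 39.9% of all probes were higher, with Ork1 at 3.14 and qvr, a regulator of Shaker, at 1.36. In tudor against wild-type females 5 of 8 were higher, where 24.2% of all probes were, SK by 1.59 and Irk2 by 1.43, and in tudor against wild-type males 3 of 8 were higher and 1 lower, where 22.7% of all probes passed in either direction, with Irk2 at 1.09 and Ork1 at -2.29. The tudor effect on Ork1 differed between the sexes by -3.36.

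The remaining lists were sparsely measured. Their counts stand beside 17.2% of all probes lower in late larvae (31% passed in either direction) and 39.9% higher in wild-type males. Of 16 sodium pump and ion transporter genes 5 had a probe, and 1 of 3 tested fell in late against young larvae, while 2 of 3 were higher in wild-type males than in females. Of 13 sodium and calcium channel genes 8 had a probe, and 2 of 7 fell in late larvae, while 4 of 8 were higher and 1 lower in wild-type males. Of 30 calcium-binding and calmodulin partner genes 3 had a probe, and 1 of 3 rose in late larvae. Of 24 septate junction genes 8 had a probe, and 3 of 8 fell in late larvae. Of 9 glial genes 5 had a probe, and 1 of 5 rose and 1 fell in late larvae, while 3 of 4 were higher in wild-type males. Of 13 muscle genes 7 had a probe. They moved in many of the comparisons in which members did. At embryo 20-24 h against 15-18 h 6 of 6 were higher (Zasp66 by 3.90), where 28.8% of all probes were. At 0-6 h of metamorphosis against late larvae 7 of 7 were lower (up by -5.92), where 17.7% of all probes were. At 72-96 h against 36-48 h 6 of 7 were higher, where 12.4% of all probes were. In wild-type males 7 of 7 were higher, where 39.9% of all probes were. In late against young larvae 0 of 7 passed, where 31% of all probes did. The part of muscle and glial transcripts in the members' differences was not tested. None of the 10 photoreceptor genes had a probe naming it alone.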

How the data were processed

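The deposited series table holds log2 ratios of sample over reference RNA from 2-colour cDNA arrays. Per the labels, animals were timed and adults sexed as described above, poly(A)+ RNA was used and a GenePix scanner read the arrays. For the steps before deposit (background correction, spot filtering, normalization), the sources used here give nothing. The labels name the sample as the red channel on 13 arrays, so the direction of the ratio is likely for the others. In 6 arrays title and scan comment conflict, and the title was used.

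The median of each array was subtracted from its values, and the 252 values above 16, at an upper limit, were treated as missing (0 of them on the 4 members' probes). Tests used limma (version 3.58.1, R 4.3.3, with the data.table package, version 1.17.8) with lmFit and eBayes, two-sided, a slide set term and Benjamini-Hochberg adjustment over all probes with a value on at least 80% of the arrays of a fit, at a threshold of 0.05. Tables were prepared in Python 3.11.15 with pandas 2.3.3 and numpy 2.4.6. Windows were fitted to their own arrays, larval sexes to 24 arrays, wild-type adults to 32 and tudor to all 40 adult arrays. For the age slopes 0-24 h was set at 0.5 d. The fits were tested on simulated data.

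Of the probes 4137 had a single gene name, 159 several and 8292 none, and 4089 of the named ones were found in the reference gene table. A gene with several probes was read from the one with most values. No genome build is named, so no positions or sequences are given. The members, gene lists and windows were chosen with earlier results of these data known. Named genes were the members, the 3 genes most like each and up to 2 members of each list per comparison with the smallest adjusted p. The lists were potassium channels, sodium pump and ion transporters, sodium and calcium channels, calcium-binding and calmodulin partners, pan-neuronal, glia, septate junction, muscle, female germline, male germline and photoreceptor genes. Alternatives were no centring, quantile normalization, other limits on missing values, each slide set alone, the slide or the replicate number as a block, other age scales, each tudor age alone, odd or conflicting arrays left out, and each array left out in turn.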

Additional observations from a re-analysis of the deposited data

Results flagged for a closer look

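Within windows of 4 to 10 arrays, 13 of 95 tests found the highest or lowest array far from the others by its gap to the nearest value. The rule flags about 1 in 20 for independent values of a single normal population. Windows here pool times or ages and share arrays between genes, so the rate expected by chance is not known. For slo the flagged arrays were replicate 1 at embryo 2-3 h (0.447) and at metamorphosis 12 h (1.163), 16 h (0.631) and 42 h (-1.408), and replicate 2 at embryo 5-6 h (-1.771) and of tudor males of 5 d (0.439). For nrv2 it was embryo 2-3 h replicate 1 (0.799). For igl they were embryo 2-3 h replicate 1 (1.393), embryo 4-5 h replicate 1 (-0.131), embryo 9-10 h replicate 1 (-1.567) and adult female 30 d replicate 2 (-2.809). For Cbp53E they were embryo 2-3 h replicate 1 (-3.827) and embryo 4-5 h replicate 1 (-4.086). Of the 13, 8 lie on the 4 arrays that resembled no array of another group.

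The tudor effect differed between males and females for nrv2 (-2.86) and for igl (-1.40) by limma's test of the difference itself. The nrv2 difference passed in 0-24 h and 5 d flies taken alone, and the igl difference passed in neither.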

How the results depend on the processing

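Of 824 member results recomputed under other settings, 709 kept their direction and their side of the threshold, 63 kept the direction and no longer passed, 23 newly passed and 29 changed direction. Of 1278 recomputed with 1 array left out, the counts were 1195, 46, 14 and 23. The causes were not tested, apart from settings that themselves hold fewer arrays or probes. Averaging the probes of a gene was not run, because each member has 1 probe. Array number and probes missing on some arrays limit what can be tested, as for Cbp53E at embryo 15-18 h.

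Within slide set A, the probes that passed in limma were 0 at embryo 4-6.5 h against 0-2 h (1379 at an unadjusted p under 0.05), 0 at 10-13 h against 4-6.5 h (915 unadjusted), 4 at 15-18 h against 10-13 h, 955 in larvae of 24-43 h against late embryos, 70 in late against young larvae, 838 in adults of 0-24 h against metamorphosis, 6 for the female age slope, 111 for the male one and 0 for their difference (858 unadjusted). The direction changed there for igl at embryo 10-13 h (-2.37), in larvae of 24-43 h (0.17), at 36-48 h of metamorphosis (-0.36) and in adults of 0-24 h (0.47), for slo at 72-96 h of metamorphosis against late embryos (0.0685), and for the slope difference of slo (-0.48) and Cbp53E (0.18). Within slide set B they were 0 at embryo 15-18 h (1773 unadjusted), 600, 139, 227 and 919 in the successive comparisons of metamorphosis from 0-6 h to 72-96 h, 12 in adults of 0-24 h, 146 between larval sexes, 280 for the female slope, 404 for the male one and 3 for their difference. The direction changed there for Cbp53E at embryo 4-6.5 h (0.38) and 10-13 h (-0.016), nrv2 at 72-96 h against late embryos (-0.21) and igl in tudor males (-0.0385). In slide set A the only igl value at embryo 4-6.5 h came from embryo 4-5 h replicate 1, which resembled no array of another group. The set A direction of igl at embryo 10-13 h therefore rests on that array.

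With a value required on every array, 1197 probes passed at embryo 10-13 h, 1.6e+02 (to 2 digits) between larval sexes, 3102 between adult sexes, 1617 in tudor females, 995 in tudor males, 937 for their difference, and 2177, 693 and 729 in the F tests over embryos, metamorphosis and all groups. Without centring they were 108 in adults of 0-24 h, 325 for the female slope, 9 for the slope difference and 507 between tudor sexes, and Cbp53E in young larvae (-0.024) and the slo tudor difference between sexes (0.10) changed direction. Under quantile normalization they were 8 at 36-48 h of metamorphosis, 197 for the slope difference and 457 between tudor sexes, and igl at 0-6 h of metamorphosis (0.47), the Cbp53E tudor difference between sexes (0.0626) and igl between tudor sexes (0.14) changed direction.

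Without the 4 arrays that resembled no other, 119 passed at 36-48 h, and Cbp53E changed direction at embryo 4-6.5 h (0.40) and 10-13 h (-0.046). Without the 9 replicate 1 arrays of 20 to 80 h of metamorphosis, 347, 257 and 919 passed at 16-24, 36-48 and 72-96 h, 9 in adults of 0-24 h and 500 in the F test over metamorphosis, and nrv2 at 72-96 h against late embryos (-0.21) changed direction. Without arrays of disagreeing labels, 615 passed at embryo 15-18 h, and the slo tudor difference between sexes was 0.028. With the slide as a random block they were 330 at embryo 15-18 h, 11, 789 and 2215 at 36-48 h, at 72-96 h and at 72-96 h against late embryos, 26 in adults of 0-24 h and 447 between larval sexes, and 5 member calls given above were lost.

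With the log2 of age, whose slopes are per doubling of age, 160 passed for the slope difference. With ages of 3 d and more they were 88 for females, 361 for males and 19 for the difference. With 0-24 h alone, 584 passed in tudor females, 653 in tudor males, 386 for their difference and 55 between tudor sexes. The direction changed there for slo in tudor females (-0.24) and males (-0.20), igl in tudor males (-0.54), the slo tudor difference between sexes (0.032) and nrv2 between tudor sexes (-0.24). With 5 d alone they were 634 in tudor males, 950 for the difference and 310 between tudor sexes, and igl between tudor sexes was 0.68. With only arrays of 0-24 h and 5 d, igl in tudor males was -0.0802.

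Nothing in the labels says that replicate numbers pair samples, and the data gave no uniform answer. Deviations of same-numbered arrays correlated with a median of 0.445 between males and females (6 of 8 pairs over 0.1), -0.013 between tudor and wild type (0 of 4), 0.221 between neighbouring embryo collections (20 of 29), 0.160 between larval times (6 of 9) and 0.646 between times of metamorphosis (13 of 16). Since not every pair was over 0.1, the replicate number as a block was kept as an alternative. With the replicate block, igl changed direction in tudor males (-0.19) and between tudor sexes (0.0587). The block also brought past the threshold slo at 72-96 h of metamorphosis (1.23), slo in adults of 0-24 h (-1.52) and the male slope of igl (-0.45), and ended no member's call.

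With 1 array left out in turn, the probes that passed ran from 605 to 1849 at embryo 15-18 h, 308 to 960 at 16-24 h and 0 to 119 at 36-48 h of metamorphosis, 32 to 173 in adults of 0-24 h, 161 to 832 for the female slope, 450 to 792 for the male slope, 24 to 122 for the slope difference and 454 to 767 between tudor sexes. Among the members, Cbp53E ran from -0.34 to 0.40 at embryo 4-6.5 h, -0.046 to 0.89 at 10-13 h, -0.59 to 0.46 between larval sexes, -0.20 to 0.0115 for the slope difference and -0.38 to 0.0226 for the tudor difference between sexes. For slo the values ran from -0.84 to 0.12 between larval sexes, -0.23 to 0.73 in tudor females and -0.45 to 0.50 for the tudor difference between sexes. For igl they ran from -0.44 to 0.17 in adults of 0-24 h, -0.0188 to 0.47 in tudor males and -0.36 to 0.20 between tudor sexes, and nrv2 ran from -0.0336 to 0.22 between tudor sexes.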
